A study of Homo sapiens with 5 samples.

Results

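SLC38A12, a gene of the SLC38 family of amino acid transporters, and SLC7A11-AS1, an RNA antisense to the cystine transporter gene SLC7A11, were the 2 of 14812 named genes whose symbols place them with the plasma membrane and lysosomal amino acid transporters. They were chosen by symbol alone, from the SLC1, SLC3, SLC6, SLC7, SLC36, SLC38 and SLC43 families without pseudogenes; the rule uses no measured value. RefSeq lists 60 protein-coding genes in these families, and the array annotation used here named a probe set for 1 of them. The gap is wider than these families: the annotation named 23 of 386 SLC genes (5.96%), against 59.4% of all RefSeq protein-coding genes. So "all genes" below means the 14812 named ones, which leave out most solute carriers and many other coding genes. Whether the array itself has probe sets for the genes left out was not checked. By family, a probe set was named for 1 of 12 genes of SLC38, 0 of 7 of SLC1, 0 of 2 of SLC3, 0 of 19 of SLC6, 0 of 13 of SLC7, 0 of 4 of SLC36 and 0 of 3 of SLC43. The other 59 transporters, among them the much-studied SLC7A5, SLC7A11, SLC3A2 and SLC1A5, were not analysed here. The values below therefore describe 1 family gene and 1 noncoding RNA, not amino acid transport by these families as a whole.

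The study compared single-cell clones of the human esophageal carcinoma line TE7 transduced with pMIRNA1-puro-control (2 clones) or with pMIRNA1-puro-CDH26 (3 clones). CDH26 is a cadherin, a calcium-dependent adhesion protein. All clones were confluent and were kept for 24 h in RPMI with 1.8 mM calcium before total RNA was taken for 1 Affymetrix Gene 2.0 ST array per clone. The deposited values are logarithms, read as log2, from which each probe set's control mean has been taken away. They hold differences between clones and no expression level. For that reason the identity of the line could not be checked from its markers, and neither gene can be called expressed or silent. The number of arrays limits the precision, and differences between clones of 1 construct enter the spread within each group.

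Amino acids cross membranes mainly through carrier proteins, and the solute carrier families divide the work by substrate and coupling. SLC38 proteins are relatives of the sodium-coupled carriers of small neutral amino acids such as glutamine, and some of them sit in the lysosome membrane. SLC7A11 is the light chain of the cystine/glutamate exchanger, which brings in cystine for glutathione synthesis, and it works as a pair with the heavy chain SLC3A2. SLC38A12 formerly had the symbol TMEM104, for transmembrane protein, and joined the SLC38 family under its current symbol.

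The construct was checked first. CDH26 was at 0.01 and −0.01 in control clones 1 and 2 and at 2.87, 3.01 and 2.63 in CDH26 clones 1, 2 and 3, a difference of 2.84 ± 0.13 log2 units (SE). The groups were far apart in the direction of their labels. The adjusted p was still 0.25 (limma, Benjamini-Hochberg over all genes, 46.3% of which had no tied clone values). In the same fit 0 of 14812 genes (0%) passed an adjusted p of 0.05, a count that was 186 with control clone 1 left out, and 1113 genes had an unadjusted p under 0.05.

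SLC38A12 was lower in every CDH26 clone than in either control clone. Its log2 value was −0.16 in control clone 1 and 0.16 in control clone 2, which average 0.00 ± 0.22 (SD, n = 2). CDH26 clones 1, 2 and 3 were at −0.40, −0.50 and −0.30, averaging −0.40 ± 0.10 (SD, n = 3). The highest CDH26 clone, clone 3, was nearest to the controls, and the lowest, clone 2, was farthest from them. The CDH26 clones spanned 0.20 log2 units among themselves and the control clones 0.32, so the difference between group means was larger than the spread within either group.

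The difference for SLC38A12 was −0.40 ± 0.12 log2 units (SE; 95% interval −0.75 to −0.05), or 0.758 times the control value (95% interval 0.596 to 0.965). The unadjusted p was 0.0337 and the adjusted p 0.626 (limma, Benjamini-Hochberg over 14812 genes), so SLC38A12 did not pass the adjusted threshold. An exact two-sided permutation test of its clone values gave p = 0.2, the smallest that 3 clones against 2 allow. Of all genes, 4.0% were lower at an unadjusted p under 0.05, and in 9.93% the CDH26 clones all lay under the controls. SLC38A12 met both criteria, as did many other genes. Such genes were more frequent among those without tied clone values, to which SLC38A12 belongs. In a fit of these 6857 genes, 517 were lower at an unadjusted p under 0.05 (limma). Counted in both directions, 1 of the 2 family-named genes had an unadjusted p under 0.05, against 7.51% of all genes. In size it lay towards the lower end of the distribution: 468 genes (3.16%), itself included, had a difference at least as far below 0, while the median over all genes was 0.00 and the middle 90% ran from −0.32 to 0.31.

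**Figure D1:**
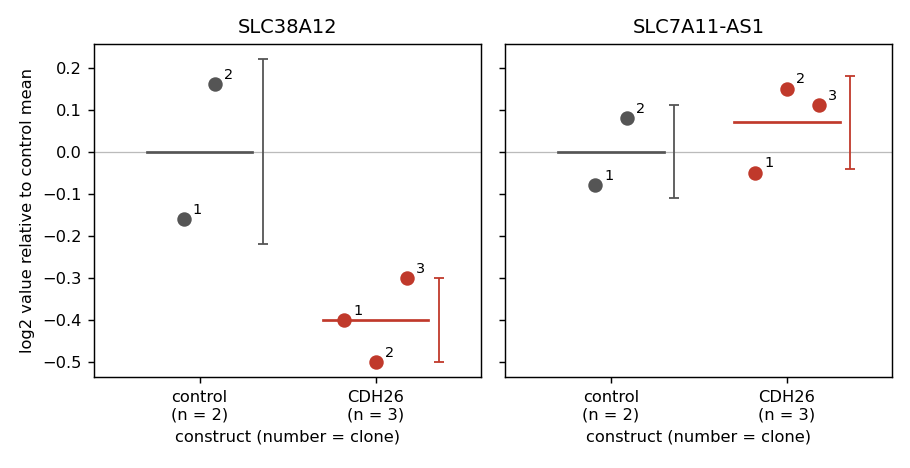
Log2 value of SLC38A12 and SLC7A11-AS1 relative to the control mean (vertical axis) in each clone, by construct. Points are clones with their number, horizontal lines are group means and bars are the SD; the CDH26 clones sit at −0.50 to −0.30 for SLC38A12, below both control clones, and overlap the controls for SLC7A11-AS1.

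The size of the SLC38A12 difference depended on the control clones. With control clone 1 left out it was −0.56 (unadjusted p = 0.0171, limma). With control clone 2 left out it was −0.24 (unadjusted p = 0.112); that clone was the higher of the controls. Both fits take the spread of the remaining control clone from that of the CDH26 clones. Leaving out CDH26 clone 1, 2 or 3 moved the difference little, to −0.40, −0.35 and −0.45, but the unadjusted p was then 0.0981, 0.0979 and 0.0573. Its sign was negative in all 5 of these fits, but it could not have been otherwise, since every CDH26 clone lay under both control clones. With CDH26 clone 1, 2 or 3 left out the adjusted p was 0.721, 0.77 and 0.535 (limma).

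SLC7A11-AS1 showed no separation of the groups. Control clones 1 and 2 had log2 values of −0.08 and 0.08, averaging 0.00 ± 0.11 (SD, n = 2). CDH26 clones 1, 2 and 3 had values of −0.05, 0.15 and 0.11, averaging 0.07 ± 0.11 (SD, n = 3). CDH26 clones 2 and 3 were above both controls, and CDH26 clone 1 lay between them. The difference was 0.07 ± 0.09 log2 units (SE; 95% interval −0.18 to 0.31), or 1.05 times the control value (95% interval 0.883 to 1.24), with an unadjusted p of 0.487 and an adjusted p of 0.771 (limma). Differences at least as large in either direction were found in 51.1% of all genes.

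No direction could be given to SLC7A11-AS1. The difference was −0.01 with control clone 1 left out and 0.14 with control clone 2 left out; it was 0.13, 0.03 and 0.05 without CDH26 clones 1, 2 and 3. In the RefSeq annotation the spans of SLC7A11-AS1 and SLC7A11 overlap. The value of the antisense RNA is no measure of the transporter transcript, which was not analysed here.

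**Figure D2:**
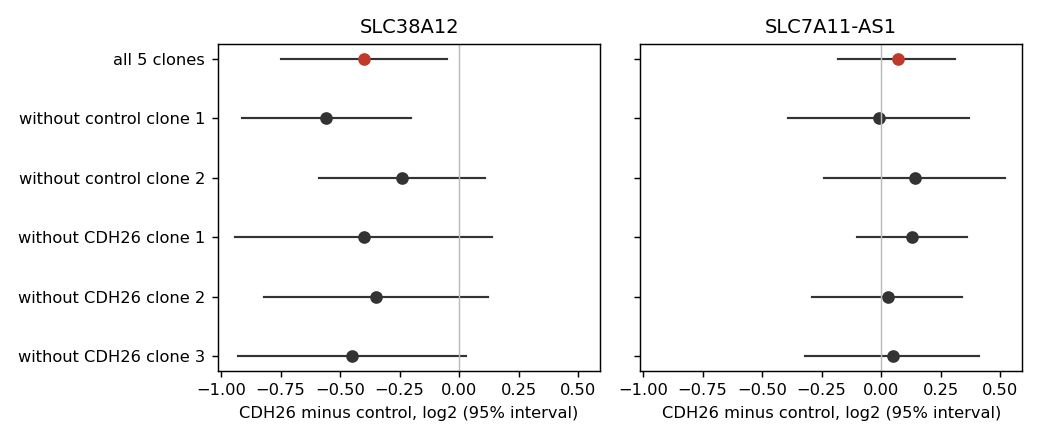
Difference between CDH26 and control clones in log2 units (horizontal axis) for SLC38A12 and SLC7A11-AS1, with all 5 clones (red) and with each clone left out (black). Lines are 95% intervals from limma. With a clone left out, the points for SLC38A12 run from −0.56 to −0.24, and those for SLC7A11-AS1 from −0.01 to 0.14. The SLC38A12 interval crosses 0 without control clone 2. It also does so without CDH26 clone 1, 2 or 3, with upper limits of 0.14, 0.12 and 0.03.

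SLC38A12 and SLC7A11-AS1 differed in direction and size, at −0.40 and 0.07, and the 2 are not repeat measurements of one pathway: 1 encodes a membrane protein and the other a noncoding RNA. Each had 1 named probe set, so no second probe set could be set beside either value.

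Genes that handle amino acids outside these families were described by lists of their members, with no test of a list. Of 24 other amino acid carriers 6 had a named probe set, most of the rest being SLC genes. All 6 had a mean below the controls, as did 49.5% of all genes, with a median difference of −0.18; SFXN1 and SLC25A2, at −0.01 and −0.02, were close to 0. Of the 6, 2 were lower at an unadjusted p under 0.05 (4.0% of all genes). In the same 2 the CDH26 clones all lay under the controls (9.93% of all genes). These were SFXN2, a sideroflexin of the mitochondrial membrane, at −0.52 ± 0.16 (SE), and SLC25A15, the mitochondrial ornithine carrier, at −0.26 ± 0.06. SFXN2 was at 0.15 and −0.15 in control clones 1 and 2 and at −0.68, −0.58 and −0.30 in CDH26 clones 1, 2 and 3. With control clone 1 left out the list's median was −0.28 and with control clone 2 left out −0.02, so it too was smaller in size without control clone 2.

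Genes that make or break down amino acids, 17 named of 34, had a median difference of −0.08; 4 were lower and 1 higher at an unadjusted p under 0.05. Asparagine synthetase (ASNS) was at −0.48 ± 0.13 (SE) and PYCR3, an enzyme of proline synthesis, at −0.15 ± 0.04. The ATF4 arm of the stress response, which raises many transporters when amino acids run short, had a median of −0.22 (13 of 19 genes). With control clone 1 left out this median was −0.36, and with control clone 2 left out it was 0.01. In this arm 2 genes were higher, DDIT4 at 0.48 ± 0.15 and EIF2AK3 at 0.33 ± 0.11. The 2 lower were ASNS, which is in both lists, and the kinase EIF2AK4 (GCN2), the sensor of uncharged tRNA, at −0.22 ± 0.06. Genes by which mTORC1 senses amino acids, 28 of 38, had a median of 0.04, with 2 higher and 0 lower. These were RRAGD, a Rag GTPase, at 0.69 ± 0.11, and LAMTOR4, a subunit of the lysosomal Ragulator complex, at 0.20 ± 0.05. For glutathione and cystine use, 17 of 21 genes, the median was −0.05 with 1 higher and 0 lower, glutathione synthetase (GSS) at 0.36 ± 0.11; TXN, thioredoxin, was at 0.29 ± 0.12. Partner and trafficking proteins of transporters, 7 of 11, had a median of 0.05 with 1 higher and 0 lower. That 1 was ARL6IP5, which binds a glutamate transporter, at 0.12 ± 0.03, and CD44, which stabilises SLC7A11, was at −0.14 ± 0.09. Over all genes 3.51% were higher and 4.0% lower at that threshold. None of the named list genes passed the adjusted one. Their adjusted p was 0.626 (limma), except for 0.811 in SFXN1 and 0.973 in SLC25A2.

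**Figure D3:**
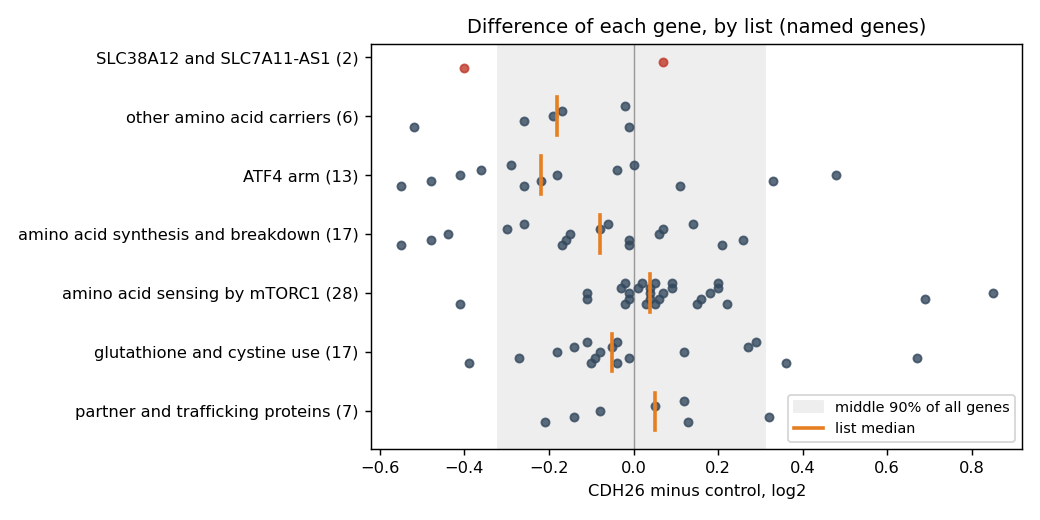
Difference between CDH26 and control clones in log2 units (horizontal axis) for each named gene of SLC38A12 and SLC7A11-AS1 (red) and of 6 lists of related genes (dark points), with the number of named genes in brackets. Orange bars are list medians and the grey band is the middle 90% of all genes, −0.32 to 0.31; SLC38A12 lies outside the band on the low side and SLC7A11-AS1 near its centre.

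Markers of cell types were read in the same clones, and 0 of them passed the adjusted threshold (limma). All 5 named of 8 squamous markers lay wholly above the controls in the CDH26 clones, against 8.98% of all genes. Of the 5, 2 had an unadjusted p under 0.05, against 3.51% of all genes higher at that threshold. Their median difference was 1.00, and 0.50 with control clone 2 left out; the control clones were themselves apart, with list medians of 0.45 and −0.45. Columnar markers, 5 of 6, had a median of −0.22, which was −0.41 with control clone 1 left out and −0.03 with control clone 2 left out. Of the 5, 3 were lower and 2 higher on average. Only GATA6, at −0.41 ± 0.13 (SE), was lower at an unadjusted p under 0.05 (4.0% of all genes). It was also the only 1 wholly below the controls (9.93% of all genes). For leukocyte markers, 2 of 5, the median was −0.01, and for endothelial markers, 2 of 4, 0.00. Of 7 fibroblast markers 2 were named, LUM at 1.59 ± 0.42 (SE) and DCN at 0.02 ± 0.03. Their part in the SLC38A12 difference was not tested.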

How the data were processed

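RNA of 5 TE7 clones was measured on 1 array each. The authors deposited 1 table of log2 values for 44607 probe sets; per the submitters' processing notes the tool was Affymetrix Expression Console. Version, summarisation method and build: not given in the sources used here. In each row of the deposited values the control clones were equal and opposite (largest absolute sum 1e-06), so probe sets were centred on the control mean. Base 2 is assumed; natural logarithms were an alternative. The annotation used here named 15835 probe sets, each with 1 gene, and left 28772 unnamed, and it may be incomplete. All 15835 gene identifiers matched RefSeq (GRCh38.p14), which was used for names, gene types and neighbours.

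Probe sets were averaged per gene, and groups, taken from the labels, were tested by limma (version 3.58.1, R version 4.3.3; lmFit, eBayes, two-sided, group the only term, Benjamini-Hochberg over 14812 genes, threshold 0.05). On simulated data the step was required only to return known differences on average. How often it called them was not a criterion. The lists and the choice of genes were made with earlier results of these data known. Every clone value is given for both transporter-family genes and CDH26. From each related list the 2 genes with the smallest unadjusted p are named. Named besides these are DDIT4 and EIF2AK3, higher at an unadjusted p under 0.05, and SFXN1 and SLC25A2, close to 0. Alternatives were each clone left out, a replicate block, array median centring, trend and robust variance, array weights, the first probe set per gene, genes without ties (values within 1e-05 counted as tied) and natural logarithms. Dim probe sets could not be filtered, since centred values hold no brightness. Figures were drawn with matplotlib 3.10.9.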

Additional observations from a re-analysis of the deposited data

How the results depend on the processing

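SLC38A12 had a negative difference and no adjusted p under 0.05 under all 12 alternatives, from −0.56 to −0.24 with each clone left out and −0.58 if the values are natural logarithms. No choice or weighting of clones could turn this sign, as all CDH26 clones lay under both controls. Natural logarithms turn no sign and move no p. Its only probe set, trend and robust variance and genes without ties leave its difference as it was. The number of transporter-family genes at an unadjusted p under 0.05 was 1 with all clones, 0 to 1 with each clone left out, and 0 with the replicate block, which leaves CDH26 clone 3 without weight. SLC7A11-AS1 ranged from −0.01, with the sign turned, to 0.14 with each clone left out. CDH26 ranged from 2.75 to 2.94 and passed the adjusted threshold among genes without ties (2.84, adjusted p = 0.0106, limma), where 1 gene in all passed. Genes without ties were 6857 of the 14812 (46.3%), so most genes had ties. With each clone left out, 0 to 186 genes passed the adjusted threshold, and 248 to 1474 were lower and 277 to 1549 higher at an unadjusted p under 0.05; with trend and robust variance 372 were lower. List medians with each clone left out ran from −0.28 to −0.02 for other carriers, −0.36 to 0.01 for the ATF4 arm, −0.17 to −0.04 for synthesis and breakdown, 0.01 to 0.06 for mTORC1 sensing, −0.07 to 0.00 for glutathione and cystine use and −0.21 to 0.09 for partner proteins. Among genes without ties they were −0.23 for other carriers, −0.15 for synthesis and breakdown and 0.09 for mTORC1 sensing, over fewer genes. As natural logarithms they were −0.27 for other carriers and −0.32 for the ATF4 arm. With the replicate block they were −0.17 for synthesis and breakdown and −0.06 for partner proteins. The causes were not tested. Same-numbered control and CDH26 clones did not deviate together (r over genes −0.20 for clones 1 and −0.21 for clones 2). The 2 control clones deviate by equal and opposite amounts, so crossed pairs had 0.20 (control 2, CDH26 1) and 0.21 (control 1, CDH26 2). With so few clones this cannot settle whether the numbers pair them. Under the block SLC38A12 was at −0.45 (unadjusted p = 0.112, limma). None of the 11 list genes named by smallest unadjusted p changed sign or passed the adjusted threshold under the 12 alternatives. LAMTOR4 and CD44, which have ties, had 11. All but CD44 lay wholly to 1 side of the controls, which largely fixed their sign. Most of their unadjusted p under 0.05 rose above it in some fit.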
